A study of Homo sapiens with 6 samples.

Results

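The oxygen-sensing hydroxylases are 5 genes, EGLN1, EGLN2, EGLN3, HIF1AN and P4HTM, chosen by symbol. Each matched 1 row of a table of 19009 genes, and all 5 were among the 18273 genes with at least 1 count that were tested. Transcripts were counted in RCC10 cells, a human clear cell renal carcinoma line known to lack functional VHL. There were 3 groups of 2 libraries. Parental cells (WT in the titles, treatment Control) had no named agent. Double-knockout cells, called DKO here as in the titles (treatment knockout), had HIF-1alpha and HIF-2alpha targeted with sgRNA lentivirus and were selected with puromycin. VHL-restored cells (treatment VHL) had received a lentivirus carrying VHL. The culture medium, DMEM plus serum, was the same for all groups. The labels name no empty vector or non-targeting guide in any group, so effects of virus or selection cannot be told apart from those of HIF or VHL. The labels do not say at which oxygen level the cells grew, whether the engineered cells were clones or pools, or whether replicates were separate cultures. The p-values therefore rest only on the spread within groups of 2 libraries, and that spread may be technical.

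The EGLN enzymes (also called PHD proteins) use oxygen, iron and 2-oxoglutarate to hydroxylate prolines of the HIF alpha subunits. VHL binds the hydroxylated subunits and marks them for degradation. HIF1AN encodes FIH, an asparagine hydroxylase that blocks the contact between HIF alpha and the coactivators EP300 and CREBBP. P4HTM encodes a membrane-bound prolyl hydroxylase of the endoplasmic reticulum that is also able to act on HIF alpha. Because EGLN1 and EGLN3 are themselves known HIF targets, the family forms a feedback loop on HIF. In renal carcinoma cells without VHL the subunits escape degradation whether or not they are hydroxylated.

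Total counts per library ranged from 22248126 to 29929116. The targeted transcripts checked the labels. EPAS1, the gene of HIF-2alpha, was at 352 and 349 CPM (counts scaled by library size) in parental, 44.4 and 48.0 in DKO and 363 and 369 in VHL-restored libraries. HIF1A was at 69.5 and 72.9, 29.6 and 31.6, and 304 and 286 CPM in the same order. VHL was at 38.8 and 39.5, 43.3 and 47.3, and 652 and 723 CPM. Both targeted transcripts thus remained at lower levels in the knockout, and the table holds no measure of protein. Of 13 renal and renal carcinoma markers, 11 reached 1 CPM in some group, but their levels differed between groups: 5 rose, 6 fell and 2 did not pass in DKO cells, and the same numbers held in VHL-restored cells. Among all genes tested, 54.1% and 54.2% were called in these comparisons. Of the 13, NDUFA4L2 fell most, from a mean of 58.7 CPM to 0.0171 in DKO and 0.143 in VHL-restored cells. The lineage factor PAX8 was at a mean of 300.6 to 407 CPM by group. In DKO cells the kidney cadherins CDH16 and CDH6 fell 17.5-fold and 5.91-fold and EPCAM, an epithelial adhesion protein, fell 4.39-fold, while the lineage factor PAX2 rose 9.31-fold and the keratin KRT18 2.42-fold. CA9, often high in clear cell carcinoma, had at most 1 count in a library. Of 9 leukocyte, 7 endothelial and 7 fibroblast markers in the table, 2, 2 and 3 reached 1 CPM in some group. Summed fibroblast markers were at 18.2 and 18.2 CPM in parental, 6.19 and 6.33 in DKO and 27.4 and 26.2 in VHL-restored libraries. The part of these marker differences in the results below was not tested.

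The sequence before the start site of the 3 EGLN genes is shown because EGLN1 and EGLN3 fell and EGLN2 rose in the engineered lines. HIF binds the core letters ACGTG or GCGTG, and both were searched on both strands of the 250 bases before each RefSeq start (GRCh38.p14). Capitals mark ACGTG, and in EGLN2 the longer run in capitals reads ACGTG on both strands with an overlap.
EGLN1, chr1:231422288-231422317, minus strand: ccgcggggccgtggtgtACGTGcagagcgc
EGLN2, chr19:40799130-40799159, plus strand: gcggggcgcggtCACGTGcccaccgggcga
EGLN3, chr14:33951082-33951324, minus strand: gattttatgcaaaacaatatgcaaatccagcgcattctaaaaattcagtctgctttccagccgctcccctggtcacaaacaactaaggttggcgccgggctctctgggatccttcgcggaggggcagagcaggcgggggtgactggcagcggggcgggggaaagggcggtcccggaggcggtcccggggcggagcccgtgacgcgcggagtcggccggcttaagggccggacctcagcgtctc

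In EGLN1 the motif began 13 bases before the RefSeq start, and in GENCODE v29 all 250 bases of that window lie in an exon of a longer EGLN1 transcript. In EGLN2 it began 49 bases before the first of the 2 RefSeq starts, and the second start's window held neither motif. Neither motif was present in the windows of EGLN3, HIF1AN and P4HTM. Of 35116 windows of this length, 18.5% held ACGTG, 32.2% held GCGTG and 43.2% held either. A match describes letters only, and binding was not measured. Sequence outside these windows, including introns, was not searched.

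EGLN1 encodes PHD2, the main HIF prolyl hydroxylase in most cells. Its level was 149.9 and 150.9 CPM in the parental libraries, 107 and 109 in the DKO libraries and 89.4 and 82.3 in the VHL-restored libraries. No 2 groups overlapped, and parental cells had the highest level. With 2 libraries a group such separation can arise without a true difference, and its share over all genes was not counted. EGLN1 fell 1.39-fold in DKO cells, by 0.47 ± 0.06 (SE) on the log2 scale (adjusted p = 9.6e-08, edgeR). It fell 1.75-fold in VHL-restored cells, by 0.81 ± 0.06 (adjusted p = 1.7e-12, edgeR). Both comparisons use the same parental libraries. The difference between the engineered lines was tested directly, and EGLN1 was 1.26-fold higher in DKO than in VHL-restored cells (log2 difference 0.33 ± 0.06, adjusted p = 3.5e-05, edgeR). In bulk RNA, fewer cells with a transcript and less RNA per cell cannot be told apart.

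EGLN3 encodes PHD3, the hydroxylase whose transcript is known to respond most strongly to HIF. Its deposited counts were 12426 and 9479 in parental, 13 and 7 in DKO and 9 and 2 in VHL-restored libraries. Parental libraries were thus far above all others, while the engineered lines overlapped each other near the limit of detection. As levels, these were 419 and 418 CPM, 0.444 and 0.272 CPM, and 0.322 and 0.0715 CPM. The second VHL-restored library lay below the level of 3 counts (0.107 CPM), and its exact 95% Poisson interval ran from 0.00866 to 0.258 CPM, which covers counting error only. EGLN3 fell 1136-fold in DKO cells (log2 change -10.15 ± 0.34, SE, 95% interval -10.81 to -9.49; adjusted p = 5.9e-32, edgeR). In VHL-restored cells it fell 2079-fold (log2 change -11.02 ± 0.45, 95% interval -11.90 to -10.14; adjusted p = 4.5e-32, edgeR). The size of this decrease rests on 11 counts: its log2 value was -12.42 without VHL-restored replicate 1 and -10.32 without VHL-restored replicate 2, so only the direction and the order of magnitude are firm. By size of decrease it ranked 12 of 18273 genes in DKO cells and 10 of 18273 in VHL-restored cells, where the fitted change of genes with 0 counts in a group depends on the prior count. Between the engineered lines the log2 difference was 0.87 with a 95% interval from -0.22 to 1.97 (adjusted p = 0.179, edgeR). That difference passed without VHL-restored replicate 1 (log2 2.27, adjusted p = 0.0138, edgeR), so these few counts do not fix an order of the engineered lines.

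EGLN2 encodes PHD1, a nuclear HIF prolyl hydroxylase, and it moved the other way. Its level was 55.4 and 57.1 CPM in parental, 84.2 and 78.3 in DKO and 75.4 and 77.1 in VHL-restored libraries. Parental libraries were the lowest. Both DKO libraries also lay above both VHL-restored libraries, but that difference did not pass. EGLN2 rose 1.45-fold in DKO cells (log2 fold change 0.53 ± 0.07, SE, adjusted p = 6.0e-08, edgeR). In VHL-restored cells it rose 1.36-fold (log2 fold change 0.44 ± 0.07, adjusted p = 1.9e-06, edgeR). The log2 difference between the engineered lines was 0.09, with a 95% interval from -0.04 to 0.22 (adjusted p = 0.26, edgeR).

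**Figure D1:**
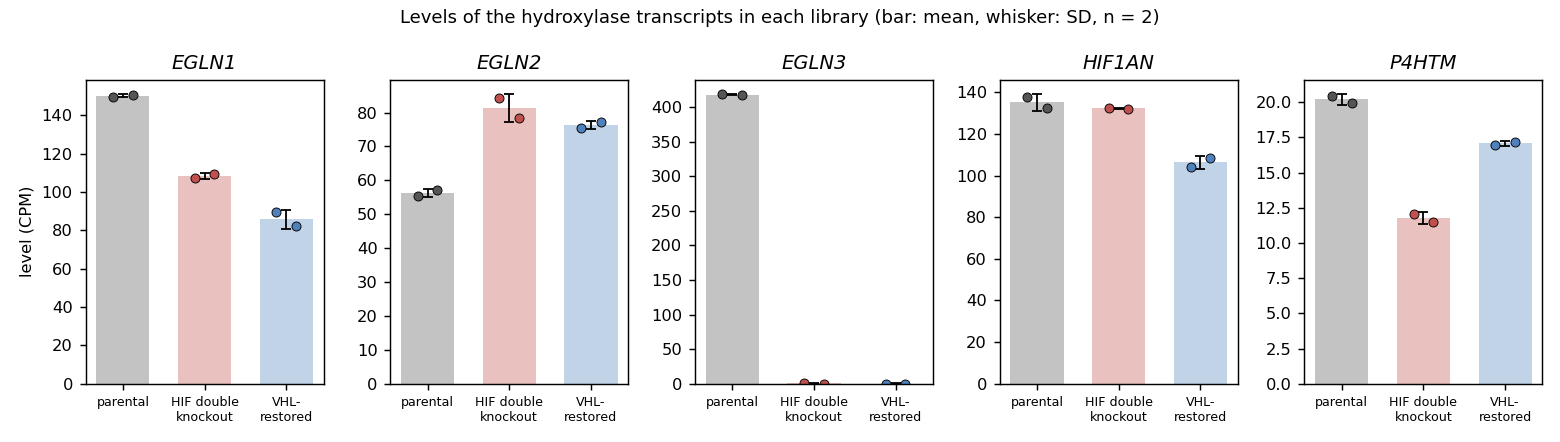
Levels of the 5 hydroxylase transcripts in CPM, each panel with its own axis from 0. Points are the 2 libraries of a group, bars their mean and whiskers the SD; EGLN3 falls from 418 CPM to under 0.5 CPM, while EGLN2 is lowest in parental cells.

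The EGLN2 values appear to share reads with another row of the table. EGLN2 lies downstream of RAB4B, which encodes a small GTPase of endosomes, and RAB4B-EGLN2 is an annotated read-through transcript over both. In the first parental library EGLN2 had 1643 counts, RAB4B 219 and RAB4B-EGLN2 1803. Across the 6 libraries the read-through row held between 95.2% and 98.3% of the sum of the other two. The read-through row therefore appears to hold largely the reads of the RAB4B and EGLN2 rows together. Reads of EGLN2 and of the read-through transcript cannot be told apart. RAB4B was at 7.38 and 6.26 CPM in parental, 7.21 and 7.03 in DKO and 17.2 and 17.8 in VHL-restored libraries. It rose 2.55-fold in VHL-restored cells (adjusted p = 2.7e-12, edgeR), and its log2 fold change in DKO cells was 0.05 (adjusted p = 0.76, edgeR). In DKO cells EGLN2 thus rose where the RAB4B row did not pass, while in VHL-restored cells both rows rose. A further row, MIA-RAB4B, had nearly the same counts as RAB4B, 217 beside 219 in the first parental library. The RAB4B row may therefore share reads with it.

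**Figure D2:**
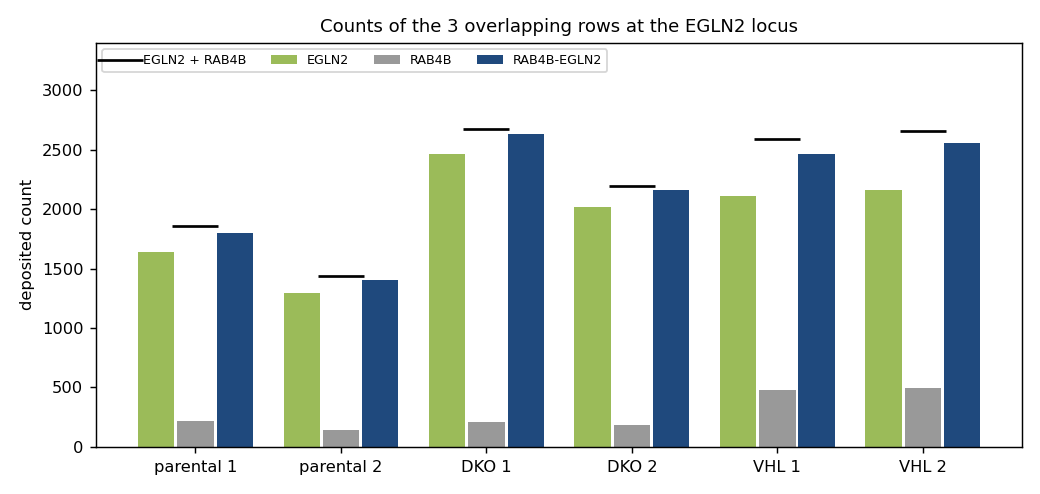
Deposited counts of EGLN2, RAB4B and the read-through RAB4B-EGLN2 in each library, with the sum of EGLN2 and RAB4B as a black line. The read-through bar reaches between 95.2% and 98.3% of that line, and RAB4B is highest in the 2 VHL-restored (VHL) libraries.

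HIF1AN (FIH) fell in VHL-restored cells but did not pass in DKO cells. Its level was 138 and 132 CPM in parental, 133 and 132 in DKO and 104 and 109 in VHL-restored libraries. Parental and DKO libraries overlapped, with a log2 change of -0.03 and a 95% interval from -0.15 to 0.09 (adjusted p = 0.699, edgeR). HIF1AN fell 1.27-fold in VHL-restored cells, by 0.35 ± 0.06 (SE) on the log2 scale (adjusted p = 1.4e-05, edgeR). It was 1.24-fold higher in DKO than in VHL-restored cells (adjusted p = 5.1e-05, edgeR).

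P4HTM had the fewest counts of the 5 in parental cells. Its level was 20.5 and 19.9 CPM in parental, 12.1 and 11.5 in DKO and 17.0 and 17.2 in VHL-restored libraries. Parental libraries were the highest and DKO libraries the lowest. P4HTM fell 1.71-fold in DKO cells, by 0.78 ± 0.09 (SE) on the log2 scale (adjusted p = 1.6e-08, edgeR). In VHL-restored cells the log2 fold change was -0.24 ± 0.09, past the threshold with all libraries (adjusted p = 0.0207, edgeR). That call was lost without any single parental or VHL-restored library (adjusted p from 0.0551 to 0.128, edgeR) and with DESeq2 (adjusted p = 0.0969). The level was 1.45-fold lower in DKO than in VHL-restored cells (adjusted p = 1.2e-05, edgeR). The annotation of the neighbouring WDR6, a WD repeat gene, overlaps P4HTM in GENCODE v29. WDR6 had 112 ± 4.09, 103 ± 6.09 and 173 ± 1.296 CPM (SD, n = 2) in parental, DKO and VHL-restored cells. Shared reads between P4HTM and WDR6 were not tested.

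**Figure D3:**
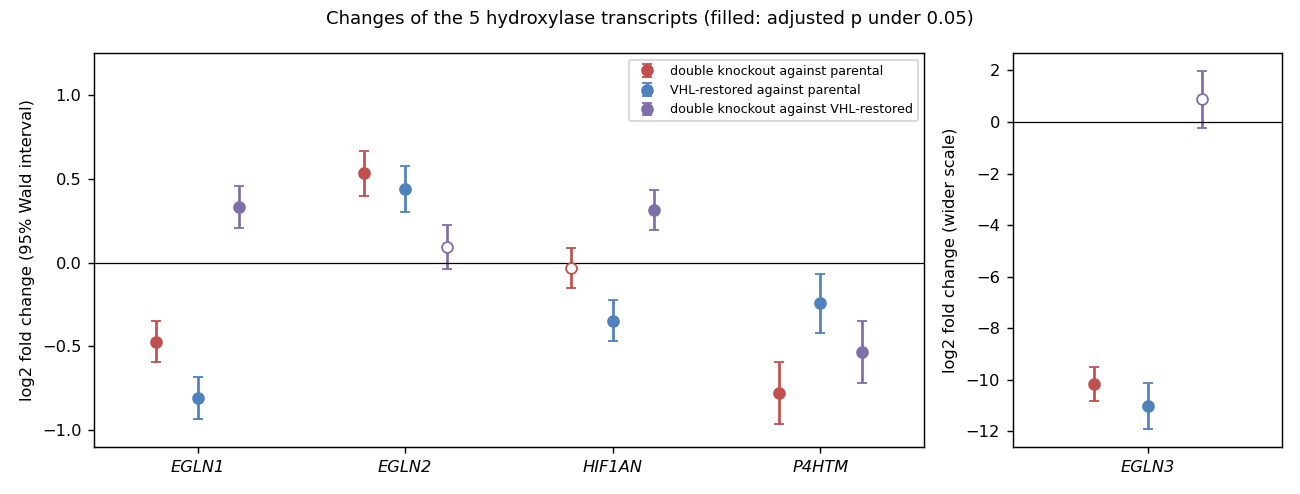
Log2 fold changes of the 5 transcripts in the 3 comparisons, with 95% Wald intervals and filled points where the adjusted p is under 0.05. EGLN3 has its own wider scale, on which it lies at -10.15 and -11.02 against parental cells; EGLN2 lies above 0 against parental cells, at 0.53 and 0.44.

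In DKO cells 1 of the 5 rose, 3 fell and 1 did not pass, when 54.1% of all genes tested were called, 26.6% higher and 27.5% lower. In VHL-restored cells 1 rose and 4 fell, with 54.2% of all genes called, 26.5% higher and 27.7% lower. Between the engineered lines 2 were higher in DKO cells, 1 was lower and 2 did not pass, with 56.0% of all genes called, 28.0% higher and 28.0% lower. With so many genes called, these counts say little about the set, and what set members apart was the size of change. EGLN3 lay at log2 values of -9.86 or lower against parental cells in every fit that left out a library, and the other 4 changed by at most 1.75-fold with all libraries.

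Levels were compared between genes only per length. Per kilobase of the longest principal GENCODE v29 transcript, EGLN3 was at 154 ± 0.175 CPM per kilobase in parental cells (SD, n = 2). EGLN1 followed at 21.2 ± 0.102, EGLN2 at 19.9 ± 0.427, HIF1AN at 10.4 ± 0.301 and P4HTM at 9.495 ± 0.173. EGLN3 was thus the most abundant by a wide margin, while EGLN1 and EGLN2 stood close together, as did HIF1AN and P4HTM. In DKO cells the order was EGLN2 at 28.8 ± 1.47, EGLN1 at 15.3 ± 0.200, HIF1AN at 10.2 ± 0.0337, P4HTM at 5.54 ± 0.191 and EGLN3 at 0.132 ± 0.0451 CPM per kilobase. In VHL-restored cells it was EGLN2 at 27.02 ± 0.429, EGLN1 at 12.1 ± 0.703, HIF1AN at 8.17 ± 0.249, P4HTM at 8.03 ± 0.0778 and EGLN3 at 0.0726 ± 0.0654. HIF1AN and P4HTM did not differ beyond their spread in VHL-restored cells. The order of genes other than EGLN3 rests on the length used. Per kilobase of coding sequence HIF1AN was at 129 ± 3.73 and EGLN1 at 118 ± 0.564 in parental cells, EGLN2 at 46.0 ± 0.987 and P4HTM at 13.4 ± 0.244, with EGLN3 still highest at 584 ± 0.661.

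The summed EGLN transcripts went from 195.6 ± 0.354 CPM per kilobase in parental cells to 44.2 ± 1.31 in DKO and 39.2 ± 0.339 in VHL-restored cells (SD, n = 2). EGLN3 made up 79.1% and 78.8% of this sum in the parental libraries, 0.364% and 0.232% in the DKO libraries and 0.301% and 0.0677% in the VHL-restored libraries. The share of EGLN2 was 10.0% and 10.3%, then 66.1% and 64.2%, then 67.8% and 70.2%. EGLN1 made up 10.8% and 10.9%, then 33.5% and 35.6%, then 31.9% and 29.8%. EGLN3 thus held most of the sum in parental cells, and EGLN1 and EGLN2 held nearly all of it in the engineered lines. Groups of 2 cannot reach significance in an exact permutation test (smallest two-sided p 0.333), so the shares are given without one. With coding length the engineered lines held more EGLN1 than EGLN2, 55.8% against 43.8% in DKO and 51.7% against 48.1% in VHL-restored cells. The ratio of EGLN1 to EGLN2 counts within a library needs no length to be compared between groups. It was 2.71 and 2.64 in parental, 1.27 and 1.40 in DKO and 1.19 and 1.07 in VHL-restored libraries.

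**Figure D4:**
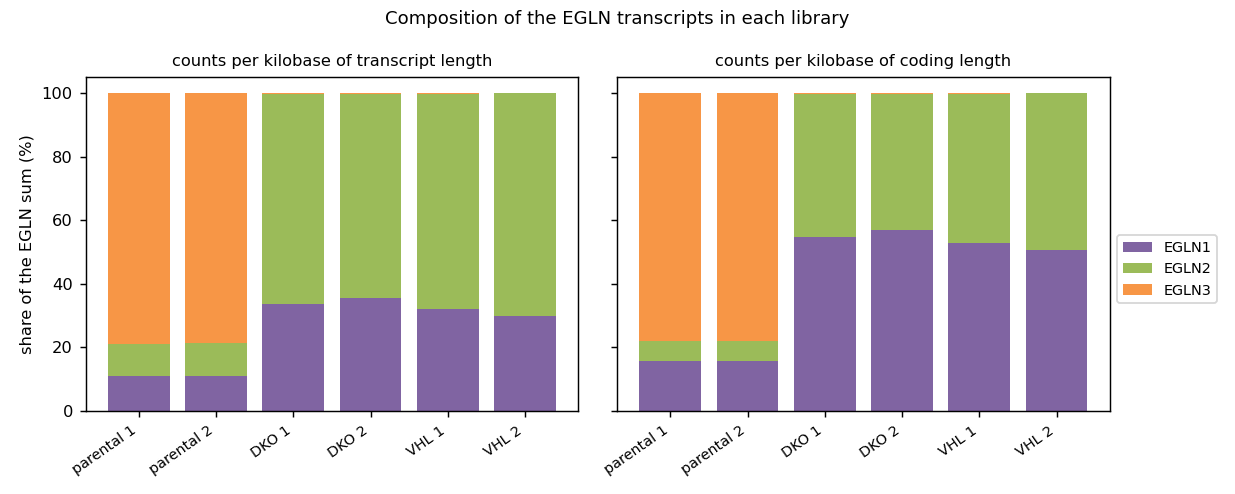
Share of EGLN1, EGLN2 and EGLN3 in their sum in each library, from counts per kilobase of transcript (left) or coding sequence (right). EGLN3 fills 78.0% to 79.1% of the parental bars and under 0.5% of the others. Whether EGLN1 or EGLN2 is larger in those others differs between the panels.

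The 5 enzymes belong to the 2-oxoglutarate oxygenases. Of 57 other human members listed, 56 were in the table, and all 56 were tested. In DKO cells 18 rose, 19 fell and 19 did not pass, with a median log2 fold change of -0.01 beside a median of 0 over all genes tested. In VHL-restored cells 16 rose, 20 fell and 20 did not pass, with a median of 0.01. Beside this list and those below, 54.1% of all genes tested were called in DKO cells, 26.6% higher and 27.5% lower. In VHL-restored cells 54.2% were called, 26.5% higher and 27.7% lower. The most lowered of the 56 lay at -2.76 and -2.41, far above the -10.15 and -11.02 of EGLN3. EGLN1, EGLN2, HIF1AN and P4HTM lay inside the range of the 56 in both comparisons.

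The collagen hydroxylases, which modify procollagen in the endoplasmic reticulum, had the largest decreases of these relatives. PLOD2, a lysyl hydroxylase, fell 6.77-fold in DKO and 3.24-fold in VHL-restored cells, from 530 ± 18.5 to 78.4 ± 6.83 and 163 ± 3.20 CPM. P4HA1, a catalytic subunit of collagen prolyl hydroxylase, fell 3.48-fold and 5.31-fold, from 254 ± 1.18 to 73.1 ± 4.22 and 47.9 ± 0.134 CPM. Of the 9 collagen enzymes, 2 rose, 3 fell and 4 did not pass in DKO cells, and 0 rose, 6 fell and 3 did not pass in VHL-restored cells. P4HA2 rose 1.16-fold in DKO cells, a call lost without parental replicate 2 (adjusted p = 0.0645, edgeR), and fell 1.73-fold in VHL-restored cells. PLOD3 fell 2.54-fold in VHL-restored cells, and its log2 fold change in DKO cells was 0.11 (adjusted p = 0.149, edgeR).

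Among 29 oxygenases of chromatin and nucleic acids, 10 rose, 11 fell and 8 did not pass in DKO cells, and 10, 8 and 11 in VHL-restored cells. JHDM1D, the older symbol of the histone demethylase KDM7A, fell 2.84-fold and 2.54-fold. KDM4C, another histone demethylase, fell 2.58-fold and 1.49-fold. PHF2 rose 1.22-fold in DKO cells, a call lost without parental replicate 2 (adjusted p = 0.0701, edgeR), and 2.16-fold in VHL-restored cells. Of 18 other oxygenases, 6 rose, 5 fell and 7 did not pass in DKO cells, and 6, 6 and 6 in VHL-restored cells. ASPH, the aspartyl and asparaginyl hydroxylase of epidermal growth factor-like domains, fell 1.60-fold and 2.354-fold from 705 ± 2.32 CPM. C14orf169, the older symbol of the ribosomal oxygenase RIOX1, rose 1.91-fold and 2.52-fold.

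**Figure D5:**
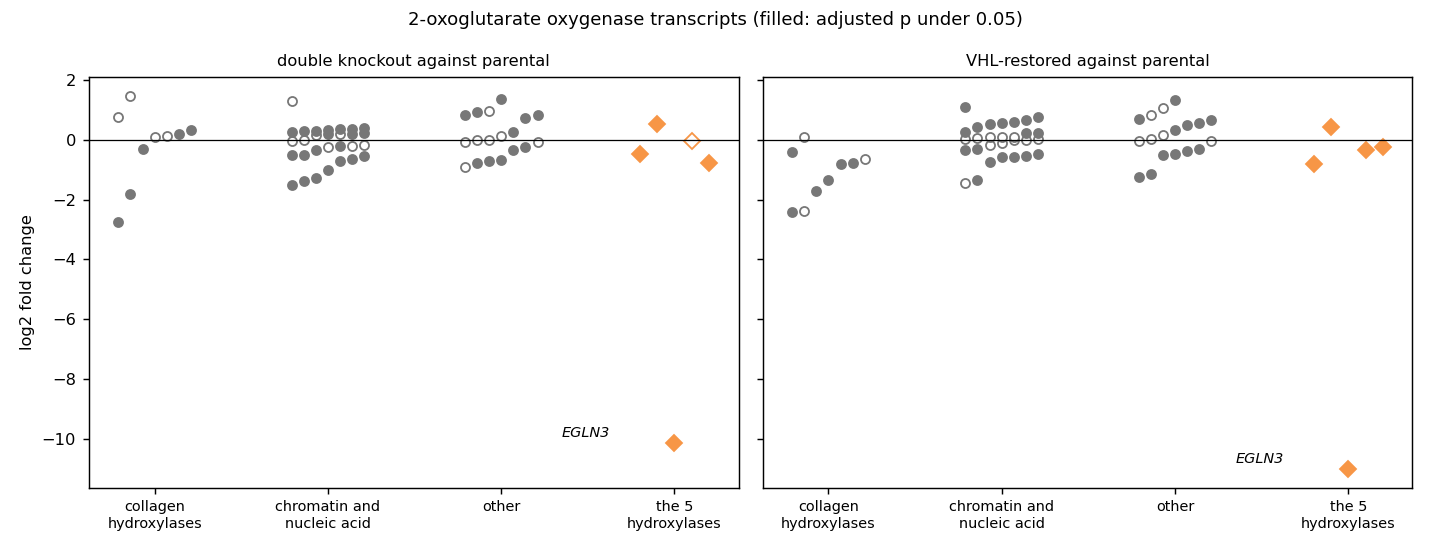
Log2 fold changes of the 2-oxoglutarate oxygenase transcripts in DKO cells (left) and VHL-restored cells (right), both against the same parental libraries. Circles are the 56 relatives in 3 classes, diamonds the 5 hydroxylases, filled where the adjusted p is under 0.05; EGLN3 lies at -10.15 and -11.02 and no relative lies below -2.76.

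The partners of the hydroxylases on the HIF pathway changed less than EGLN3. Of 13 such genes, 5 rose, 5 fell and 3 did not pass in DKO cells, where the median log2 fold change was -0.11. In VHL-restored cells 4 rose, 2 fell and 7 did not pass, with a median of 0.09. All genes tested were called at shares of 54.1% and 54.2% in these comparisons. The 13 include HIF1A and EPAS1, which were targeted in DKO cells and fell there. They also include VHL, which the lentivirus carried and which rose 17.6-fold in VHL-restored cells. The counts therefore take in the engineered genes. In VHL-restored cells HIF1A rose 4.15-fold, and EPAS1 did not pass (log2 fold change 0.06, adjusted p = 0.386, edgeR). ARNT2, a dimerization partner of HIF alpha, rose 2.06-fold in DKO and 1.29-fold in VHL-restored cells. CUL2, the scaffold of the VHL ubiquitin ligase, rose 1.86-fold in DKO cells, from 61.0 ± 0.733 to 113 ± 9.54 CPM. Its log2 change in VHL-restored cells was 0.09 (adjusted p = 0.307, edgeR).

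Genes whose products act on EGLN proteins were listed separately. Of these 9, 2 rose, 5 fell and 2 did not pass in DKO cells, and 5 rose, 1 fell and 3 did not pass in VHL-restored cells. Over all genes tested the shares called were 54.1% and 54.2%. The 7 calls in DKO cells went to 2 without parental replicate 1, 4 without parental replicate 2 and 1 without DKO replicate 2. SIAH2, a ubiquitin ligase that targets EGLN3 protein, was at 42.0 ± 0.298 CPM in parental, 35.05 ± 2.27 in DKO and 57.4 ± 1.55 in VHL-restored cells. It rose 1.37-fold in VHL-restored cells (adjusted p = 3.8e-06, edgeR). Its decrease in DKO cells, 1.197-fold (adjusted p = 0.00434, edgeR), did not pass once either parental library or the second DKO library was left out (highest adjusted p = 0.0603, edgeR). The related SIAH1 passed in neither comparison with parental cells, at log2 fold changes of -0.14 and 0.13 (adjusted p = 0.232 and 0.231, edgeR). WTIP, a LIM protein related to the EGLN1 and VHL scaffold LIMD1, rose 1.39-fold and 1.92-fold.

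The hydroxylases consume 2-oxoglutarate and are inhibited by succinate, fumarate and 2-hydroxyglutarate. Of 18 enzymes that make or remove these metabolites, 11 rose, 6 fell and 1 did not pass in DKO cells (median log2 fold change 0.18). In VHL-restored cells 5 rose, 6 fell and 7 did not pass (median -0.07). Among all genes tested 54.1% were called in DKO cells, 26.6% higher and 27.5% lower, and 54.2% in VHL-restored cells. SDHB, the iron-sulfur subunit of succinate dehydrogenase, rose 1.85-fold in DKO cells from 83.2 ± 0.0398 to 154 ± 3.01 CPM. SDHC, a membrane subunit of the same complex, was at 35.2 ± 0.316 CPM in parental and 20.6 ± 0.646 in VHL-restored cells, where it fell 1.71-fold. D2HGDH, which oxidizes D-2-hydroxyglutarate, fell 2.18-fold in DKO cells from 23.9 ± 2.46 to 10.9 ± 1.23 CPM. GOT2, a mitochondrial transaminase that makes 2-oxoglutarate, rose 1.54-fold and 1.62-fold in the engineered lines. No metabolite was measured.

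EGLN3 was set beside 22 transcripts often used as readouts of hypoxia. Of these 20 fell, 1 rose and 1 did not pass in each comparison with parental cells, with medians of -2.06 in DKO and -2.39 in VHL-restored cells. Lower calls made up 27.5% and 27.7% of all genes tested. EGLN3 lay below the lowest of the 22, NDRG1 at -5.65 in DKO cells and CA12 at -7.65 in VHL-restored cells. Outside the list, STC1 was fitted lower than EGLN3 in both comparisons, at -12.5. That value depends on the prior count, as STC1 had 0 counts in the engineered lines. NDUFA4L2, also outside the list, lay at -11.33 in DKO and -8.64 in VHL-restored cells. EGLN1, at -0.47 and -0.81, lay above the medians. The list was assembled with earlier results of these data known.

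The transcripts most like each hydroxylase were found by root mean square distance over the 6 libraries. Distances used log2 CPM (prior count 2) relative to the parental mean, among 12609 genes with at least 1 CPM in parental cells. For EGLN3 no gene lay within 0.25. Its 5 nearest genes, like EGLN3, passed the 1 CPM limit through parental cells and were near 0 elsewhere, so their distances and order depend on the prior count and the parental level and do not rank likeness. They were LOC100506134, SYT13, STC1, NDUFA4L2 and ENPEP. The counts of LOC100506134 were 1861 and 1432 in parental, 0 and 0 in DKO and 1 and 0 in VHL-restored libraries. SYT13, a synaptotagmin, had 386 ± 11.5 CPM in parental, 0.915 ± 0.134 in DKO and 0.143 ± 0.152 in VHL-restored cells. STC1, encoding stanniocalcin, had 872 and 547 counts in parental libraries and 0 in the others. NDUFA4L2, a mitochondrial protein of hypoxic cells, had 1782 and 1300 counts in parental libraries and between 0 and 6 in the others. ENPEP, the renal aminopeptidase A, had 3585 and 2816 in parental libraries and between 4 and 13 in the others. EGLN1 had a common pattern, with 947 genes within 0.25. Its nearest were KLHDC10, FAM45A, AAK1, FAM45B and RMDN1 at 0.0332 to 0.0452, of which FAM45A and FAM45B are near copies whose reads may be shared. EGLN2 had 1979 genes within that distance, led by SNAPC4, LETM1 and OAZ1. HIF1AN had 2551, led by ANXA5, WDR43 and KCNS3, and P4HTM had 1010, led by ERVK13-1, DNM2 and MSRB1. These numbers depend on the size of each gene's change. HIF1AN changed by only -0.03 and -0.35 on the log2 scale against parental cells, so its 2551 may include genes that did not change.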

How the data were processed

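The authors deposited whole-number counts per gene symbol for 6 libraries. The table is named as normalized, but its column totals and medians differ, so the values were treated as raw counts. HISAT2 2.2.1 and featureCounts 2.0.8 are named per the submitters' processing notes, beside Trimmomatic 0.39, limma 3.58.1 and FastQC 0.74; hg38 and hg19 both appear, with no roles. Strand and overlap settings for the counting are not given there. The 18273 genes that had any count were tested with edgeR 4.0.16 in R 4.3.3. The quasi-likelihood test used TMM scaling (factors 0.977 to 1.02), a model of 3 group means over all 6 libraries, a prior count of 0.125, and a threshold of 0.05 on p-values adjusted by Benjamini-Hochberg over all genes of a comparison. The SE is the Wald error of that fit. CPM values use the scaled library size, and 3 counts correspond to 0.101 to 0.132 CPM. Between replicates the chi-square per degree of freedom was 2.65, 4.86 and 6.89 (parental, double knockout, VHL-restored), so no library was a copy of another. List symbols were matched directly or through 1 RefSeq synonym. The fit was tested on simulated data.

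The 5 genes and all lists were chosen with earlier results of these data known, so counts over lists are descriptions. Named genes are the 5, HIF1A, EPAS1 and VHL, and per list and comparison at most 4 genes past 0.05, taken by size of change. ADO, SIAH1, SIAH2 and ASPH are also named, as are the nearest patterns (5 genes for EGLN1 and EGLN3, 3 for the others). Of the collagen hydroxylases only PLOD2, P4HA1, P4HA2 and PLOD3 are named, although all had been planned. RAB4B, RAB4B-EGLN2, MIA-RAB4B and WDR6 were added after their values were seen, for their overlap with members or with RAB4B. LIMD1 and AJUBA were also added after their values were seen, to stand beside WTIP. Alternatives were RLE scaling, library totals, median centring, DESeq2 1.42.0, limma-voom, 2 other filters, fits of 2 groups, the replicate block, prior count 2, coding length, and leaving out each library; for list counts these were added after seeing the data. Protein sequences were not used here. Promoter sequences are RefSeq's (GRCh38.p14), and transcript lengths are GENCODE v29's.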

Additional observations from a re-analysis of the deposited data

How the results depend on the processing

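Of the 15 values (5 genes in 3 comparisons), 12 kept their direction and their side of the threshold under all 16 alternatives. The exceptions were P4HTM in VHL-restored against parental cells, which no longer passed with DESeq2 (log2 fold change -0.2415) and without single libraries (-0.254 to -0.215), EGLN3 between the engineered lines, which ranged from 0.173 to 2.27 without single libraries, and HIF1AN in DKO against parental cells, which ranged from -0.0606 to 0.000124 without single libraries, reversing without parental replicate 1, and passed under none. EGLN3 in VHL-restored against parental cells kept its call but ranged from -12.42 to -10.32. Leaving out a library leaves fewer samples, and EGLN3 had at most 13 counts in an engineered library; the cause of the DESeq2 difference was not tested. With coding length the EGLN shares in parental cells were 15.8% for EGLN1, 6.16% for EGLN2 and 78.1% for EGLN3. In DKO cells they were 55.8% and 43.8%, and in VHL-restored cells 51.7% and 48.1%, for EGLN1 and EGLN2. Same-numbered libraries did not deviate together in all pairs of groups (correlations 0.133, -0.00241 and 0.0224), so the numbers do not pair them. A replicate block gave 10112 calls in DKO and 10148 in VHL-restored against parental cells, beside 9888 and 9898, and changed no call of the 5. Counts of called genes stayed within 1.5 times under each alternative, as did 529 of 540 counts over lists.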

Other observations

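A second oxygen-sensing branch, not part of the HIF hydroxylases, runs through ADO, a thiol dioxygenase that oxidizes amino-terminal cysteines and so marks its substrates RGS4, RGS5 and IL32 for degradation. ADO was at 44.7 ± 6.27 CPM in parental, 58.2 ± 2.21 in DKO and 25.1 ± 3.15 in VHL-restored cells (SD, n = 2). It fell 1.78-fold in VHL-restored cells (adjusted p = 3.3e-09, edgeR) and was 2.32-fold higher in DKO than in VHL-restored cells (adjusted p = 4.2e-13, edgeR). Its increase in DKO against parental cells, 1.31-fold (adjusted p = 0.000274, edgeR), was lost without parental replicate 1 (adjusted p = 0.123). Of the substrates' transcripts, IL32, a cytokine, rose 2.27-fold in DKO cells, from 84.0 ± 5.21 to 191 ± 10.8 CPM, and was at 83.2 ± 5.76 in VHL-restored cells. RGS5, a regulator of G protein signalling, fell 2.13-fold in DKO and 1.32-fold in VHL-restored cells from 12.1 ± 0.124 CPM. RGS4, of the same family, was low, at 3.46 ± 0.222 CPM in parental, 2.53 ± 0.434 in DKO and 4.99 ± 0.0287 in VHL-restored cells. It was 1.98-fold lower in DKO than in VHL-restored cells (adjusted p = 2.7e-06, edgeR). Against parental cells RGS4 fell 1.37-fold in DKO cells (adjusted p = 0.0256, edgeR) and rose 1.45-fold in VHL-restored cells (adjusted p = 0.0031, edgeR). The decrease did not pass with DESeq2 or limma-voom, nor when either parental library or DKO replicate 1 was left out, and the increase did not pass with DESeq2 or without parental replicate 1 (highest adjusted p = 0.255 and 0.0793). These are transcript levels, and the ADO step acts on protein, which was not measured.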
